A study of Mus musculus with 6 samples.

Results

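Of 896 mouse chromosome 18 genes in the deposited gene table, 306 made up the set described here, out of 53465 genes in all. A gene was a member if the GENCODE M21 annotation of GRCm38 places it on chromosome 18 and if at least 10 estimated counts were listed in at least 3 of the 6 libraries. The clustered protocadherin genes (Pcdha, Pcdhb and Pcdhg) were left out, which removed 13 genes that had enough counts. The remaining 577 genes of the chromosome fell under the count rule, and 380 of these had no count in any library. The chromosome was selected on the same AxR against P values that are given below, because its genes were higher in AxR. Its medians and counts of calls are therefore a description, with no test of the chromosome as a whole.

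The libraries compare parental 4T1 cells (P) with 4T1 cells resistant to axitinib (AxR), with 3 libraries each. 4T1 is a mammary carcinoma line from Balb/c mice, and axitinib is a small-molecule inhibitor of the VEGF receptor tyrosine kinases. AxR cells came from a metastatic lesion that arose after the primary tumour had been removed, in mice dosed with axitinib at 100 mg/kg/day, and were then kept in 0.5 µM axitinib for more than 2 months. The study's text calls P cells vehicle-treated, whereas the growth text of the labels names 5% FBS and 0.5 µM axitinib for all 6 libraries, so whether P cells saw the drug before harvest cannot be told from these sources. AxR was 1 derived line, so that a difference between the lines cannot be told apart from a difference that arose in that 1 derivation. Nothing states whether the 3 libraries of a line were separate cultures, and their spread may be technical.

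Mouse chromosome 18 carries genes of very different roles. Smad2, Smad4 and Smad7, which carry or restrain signals of the TGF-beta family, lie on it, as do Apc and Csnk1a1, parts of the complex that marks beta-catenin for destruction. It also holds the desmosomal cadherins, the clustered protocadherins, Cdh2, Zeb1, Lmnb1 and the gene for the VHL-associated scaffold Cul2. Neighbouring genes on a chromosome are not, as a rule, members of one pathway, and a shift that follows position therefore spans many functions.

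Total estimated counts per library were between 15495260 and 17294525, and 3 counts, taken as the floor, corresponded to 0.171 to 0.196 CPM (counts per 1000000 normalized counts of the library). Intervals and floors cover counting error only. The lines separated on the first principal component, with 84.3% of the variance. Libraries of 1 line differed by more than sampling noise in all 6 pairs (chi-square per degree of freedom 5.03 to 19.4), so no library was counted as a copy of another. The summed level of 7 epithelial markers was 1542 to 1704 CPM in P and 2319 to 2410 CPM in AxR, with most of it from Krt18, Cdh1 and Krt8 and with Krt5 at 0. Cldn7 of the same list went the other way, at 6.87 to 9.06 CPM in P and 0.638 to 0.853 CPM in AxR. Leukocyte markers summed to at most 0.365 CPM in any library, endothelial markers to at most 0.635 CPM and lung epithelial markers to at most 0.173 CPM. The fibroblast markers summed to 22.5 to 24.1 CPM in P and 9.91 to 11.2 CPM in AxR, most of it from Pdgfra, with Lum at 0. The part of these markers in the results on chromosome 18 was not tested.

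Most chromosome 18 members were higher in AxR, by a modest amount at the median. The median log2 fold change (AxR against P) over the 305 members tested was 0.50, which is a fold of 1.41, against 0.0058 over all 13550 genes tested and -0.0054 over the genes tested on other chromosomes. Members had a log2 fold change above 0 in 263 cases (86.2%) and below 0 in 42, whereas 50.4% of all genes tested were above 0. The quartiles of the members were 0.25 and 0.77.

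By edgeR's quasi-likelihood test at an adjusted p threshold of 0.05 over all genes tested, 232 members (76.1%) were called higher in AxR, beside 32.8% of all genes. Another 21 members (6.89%) were called lower, beside 30.8% of all genes, and 52 were not called. In 237 members every AxR library was above every P library, which held for 35.1% of all genes, and in 21 members all 3 AxR values lay under the lowest P value, which held for 33.2% of all genes. The libraries of the 2 lines overlapped in the other 47. Of the 232 members called higher, 231 had libraries that did not overlap, and the exception was Spry4, an inhibitor of receptor tyrosine kinase signalling, with a log2 fold change of 0.28. The calls and the overlap rest on the same 6 libraries, so this count is no separate result about the members. The matching share of all genes called higher was not computed.

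The shift was present in each library. Members held 1.86, 1.86 and 1.84% of all counts in P replicates 1 to 3 and 2.48, 2.51 and 2.57% in AxR replicates 1 to 3. On the log2(CPM + 0.5) scale, the median member stood 0.47, 0.49 and 0.49 above the mean of P in AxR replicates 1 to 3, and each P library stood 0.0036, -0.012 and 0.012 from the other 2 P libraries. The medians of the 3 AxR libraries were thus alike under upper-quartile normalization (SD 0.0102) and lay above those of the P libraries. With library size only, the AxR medians were further apart, at 0.41, 0.47 and 0.51. In the AxR libraries, 85.6, 85.9 and 85.6% of members were above the mean of P, and in the P libraries 51.1, 45.6 and 54.1% were above the other 2.

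At the scale of 10 Mb windows, the shift ran along the measured chromosome rather than along a segment. Members started between 3.27 and 90.58 Mb, and in consecutive 10 Mb windows of gene start the medians of the 9 windows with at least 10 members were 0.36 to 0.71. In order from the start of the chromosome these window medians were 0.71 (20 members), 0.60 (22), 0.50 (23), 0.53 (82), 0.45 (26), 0.51 (18), 0.47 (56), 0.36 (34) and 0.55 (21). None was near 0. The window from 0 to 10 Mb was the highest and that from 70 to 80 Mb the lowest of the 9.

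**Figure D1:**
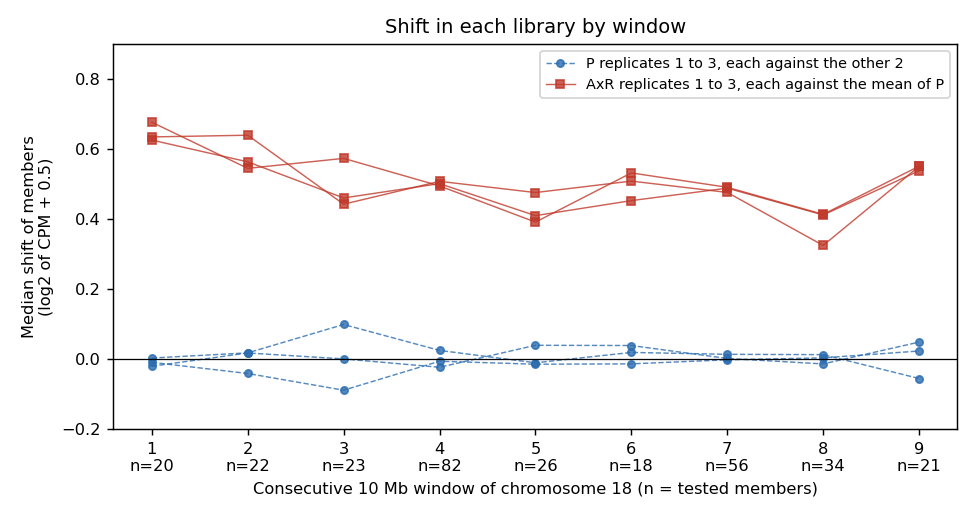
Median shift of the chromosome 18 members in each library, on the log2(CPM + 0.5) scale, by consecutive 10 Mb window of gene start (1 to 9, with the number of tested members). Each AxR library (squares) is set against the mean of P and each P library (circles) against the other 2 P libraries. The AxR libraries lie between 0.32 and 0.68 in every window and the P libraries within 0.099 of 0.

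Window by window, the AxR libraries lay 0.32 to 0.68 above the mean of P on the log2(CPM + 0.5) scale, and no P library lay more than 0.099 from the other 2 P libraries. A running median of 25 neighbouring members never came near 0 either, with a lowest value of 0.32 at 65.8 Mb and a highest of 0.72 at 35.56 Mb over 281 positions. This running median has no value at the outermost members and cannot show an unshifted stretch much shorter than 25 members. The first 152 members in order had a median of 0.57 and the other 153 a median of 0.45. Over all splits with at least 20 members on each side, the largest difference of medians was 0.23, between 0.71 for the first 20 members and 0.48 for those after them. On the other 19 chromosomes the same largest difference was 0.0943 to 0.594, with a median of 0.316.

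**Figure D2:**
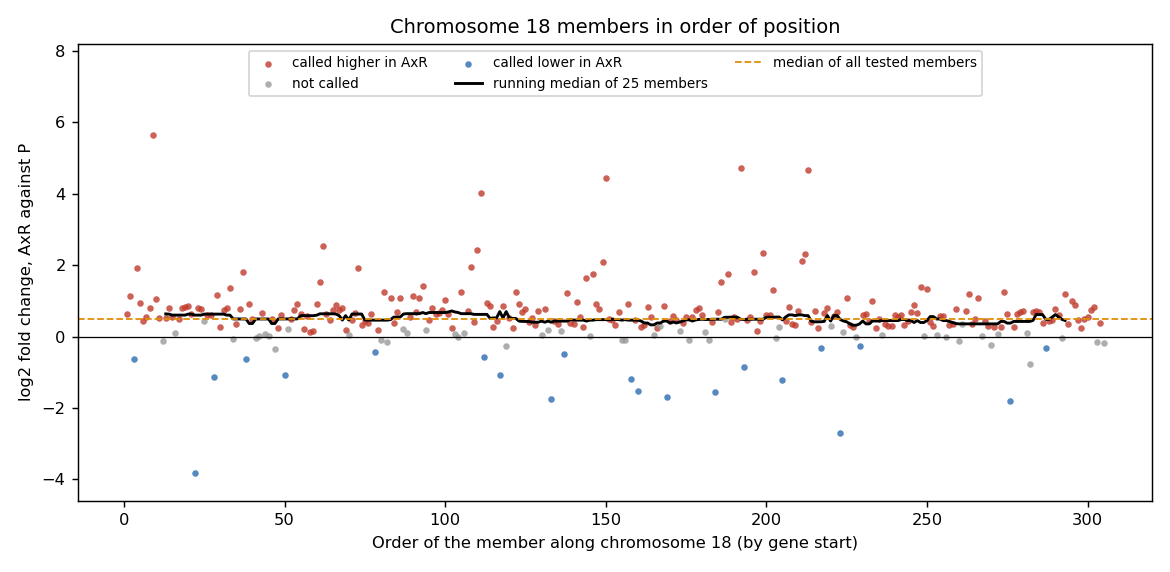
log2 fold change (AxR against P) of the 305 tested members in order of position along chromosome 18. Each point is 1 gene, coloured by its edgeR call, the black line is the running median of 25 members (0.32 to 0.72) and the dashed line the median of all members (0.50). Genes called lower lie among neighbours whose median is above 0, and members near the floor in P, such as Zeb1, Psd2 and Iigp1, are drawn at their fitted values.

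Stretches without any member limit where the shift could be followed. No member started between Celf4 and Pik3c3 (25.48 to 30.27 Mb), between Gm10036 and Dsg2 (15.83 to 20.56 Mb) or between Timm21 and Socs6 (84.95 to 88.67 Mb). Several members beside the gap from Gm10036 to Dsg2, named after their values were seen, were not called. They were Kctd1 (-0.033), Gm10036 (0.019), Gm10269 (0.087), B4galt6 (0.027) and Rnf125 (-0.35). Among them, Dsg2 (0.66) and Trappc8 (0.50) were called higher. Whether the shift is absent over this short stretch was not tested. Beyond 90 Mb only 3 members were left, Tmx3 and 2 others, and their median was -0.16. Tmx3, a thioredoxin-related protein of the endoplasmic reticulum, was at 111, 87.9 and 105 CPM in P replicates 1 to 3 and at 140, 145 and 116 CPM in AxR replicates 1 to 3, with no overlap (log2 fold change 0.39, SE 0.11). It was called higher, whereas the others, the pseudogene Eif3s6-ps2 and Gm45871, were not called.

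Among the 20 chromosomes, chromosome 18 had the highest median, which is how it was chosen. The other medians were -0.32 (chromosome 16) to 0.32 (chromosome 3), and the members' share above 0 of 86.2% stood beside 24.2 to 76.2% elsewhere. The spread of the members was at the low end of the range over chromosomes, with an interquartile range of 0.527 against 0.558 to 0.768 and a median absolute deviation of 0.274 against 0.275 to 0.379. Running medians spanned 0.401 along chromosome 18 and 0.559 to 1.25 along the others, but chromosome 18 also had the fewest genes tested and hence fewer positions. Its 10 Mb window medians had an SD of 0.0988, within the range of 0.0538 to 0.277 over the other chromosomes. On chromosome 3, the next highest, the medians of 16 windows ran from -0.0048 to 0.66, so that its lowest window was near 0. Window medians all above 0 were not particular to chromosome 18. They ran from 0.049 to 0.27 on chromosome 7 and from 0.052 to 0.21 on chromosome 15. None of these differences between chromosomes was tested.

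**Figure D3:**
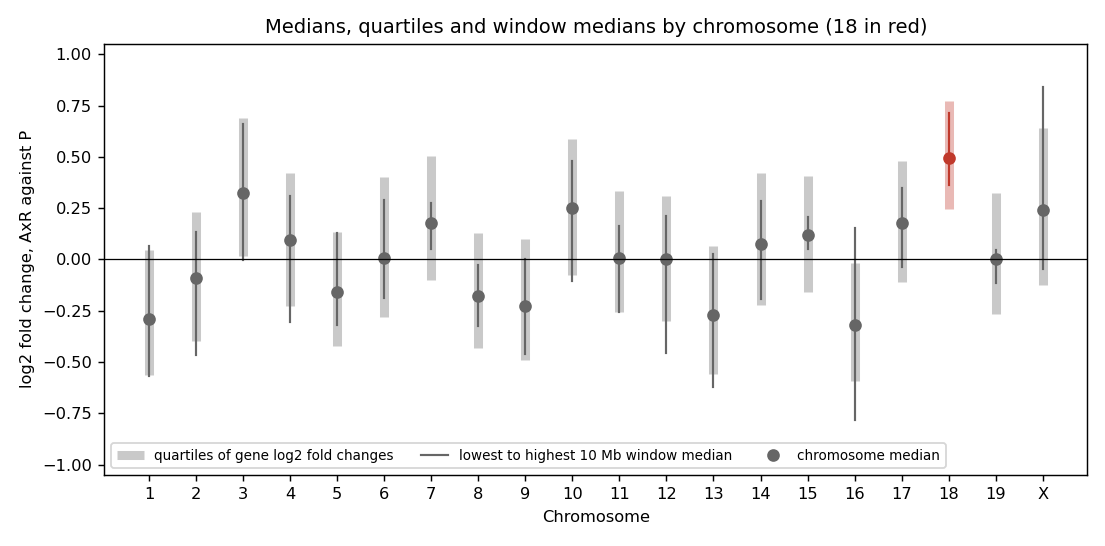
log2 fold change (AxR against P) by chromosome. Points are medians over tested genes, thick bars the quartiles and thin lines the lowest to highest median of 10 Mb windows with at least 10 genes. Chromosome 18 (red) has the highest median, 0.50, with quartiles of 0.25 and 0.77. Its windows (0.36 to 0.71) stay above 0, as do those of chromosomes 7 and 15.

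The members' values were spread around the chromosome's median by more than their errors. The median SE of a member was 0.077, and 147 members (48.2%) lay within 0.25 of the chromosome's median, 220 (72.1%) within 0.5 and 267 (87.5%) within 1. Of the 38 members farther than 1 away, 21 lay above and 17 below, and 26 of these 38 had a mean over all 6 libraries under 10 CPM, which was so for 80 of the 305 members tested.

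Members of low and high level had similar medians and unlike spreads. Split by mean CPM over all 6 libraries, the members formed 3 near-equal groups, which from the lowest to the highest level had medians of 0.55 (102 members), 0.51 (101) and 0.48 (102). The quartiles narrowed from -0.022 to 1.13 in the lowest group to 0.27 to 0.68 in the highest. Among the 54 members with a mean of at least 100 CPM, 47 were called higher and 2 lower, with a median of 0.47 and a range of -1.09 to 1.13. Over all genes tested, of any level, 32.8% were called higher and 30.8% lower. Calls differed with level, since 57.8% of the lowest group of members and 83.3% of the highest were called higher. The share called among all genes of at least 100 CPM was not computed.

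Protein-coding members and pseudogenes had different medians, while those of the strands were close. The 278 protein-coding members had a median of 0.53, with 225 called higher (80.9%) and 18 lower (6.47%). The 15 pseudogenes had a median of -0.030, with 2 called higher and 2 lower (13.3% each way), and the 12 other noncoding genes had a median of 0.28. Off chromosome 18, protein-coding genes had a median of -0.0010, with 34.2% called higher and 33.7% lower, and pseudogenes had a median of -0.055, with 16.9% called higher and 20.2% lower. The calls among the chromosome 18 pseudogenes were thus near the share of pseudogenes elsewhere. Reads of a pseudogene can come from its parent gene on another chromosome, and the estimated counts split such reads, so these members' values are uncertain. Members on the plus strand had a median of 0.48 (164) and those on the minus strand of 0.52 (141), although 15 of the 21 called lower were on the minus strand.

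The members with the highest mean CPM show both cases. Rps2-ps10 (61259008-61259972, minus strand), annotated as a processed copy of a ribosomal protein gene, was at 1468, 1594 and 1506 CPM in P replicates 1 to 3 and at 1545, 1455 and 1474 CPM in AxR replicates 1 to 3. The lines overlapped and the log2 fold change was -0.030 (SE 0.048). Hspa9 (34937414-34954357, minus strand), the mitochondrial HSP70 chaperone, was at 894, 928 and 940 CPM in P and 1626, 1499 and 1529 CPM in AxR. Every AxR library of Hspa9 was above P, with a log2 fold change of 0.75 (SE 0.047).

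Atp5a1, the alpha subunit of the mitochondrial ATP synthase, was at 422, 478 and 456 CPM in P and 739, 707 and 746 CPM in AxR (log2 fold change 0.69, SE 0.052). Nars, the asparaginyl-tRNA synthetase, was at 435, 456 and 444 CPM in P and 732, 718 and 726 CPM in AxR (0.70, SE 0.044). Rpl17, a protein of the large ribosomal subunit, was at 517, 505 and 521 CPM in P and 652, 669 and 656 CPM in AxR (0.36, SE 0.043). None of these 3 overlapped between the lines, and Rpl17 moved by less than the chromosome's median.

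Of 171 chromosome 18 genes grouped by role in 9 lists, 136 were tested, and 115 of these (84.6%) were called higher and 7 (5.15%) lower, with a median of 0.56. These shares stand beside 32.8 and 30.8% of all genes tested and beside 76.1 and 6.89% of all tested members. The 169 tested members in no list had a median of 0.46, with 117 (69.2%) called higher and 14 (8.28%) lower. The counts of each list below are to be read against these shares, and no list was tested against the other members. The lists were chosen with earlier results of these data known. List medians were 0.43 to 0.90 for all lists except that of adhesion, matrix and guidance genes.

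**Figure D4:**
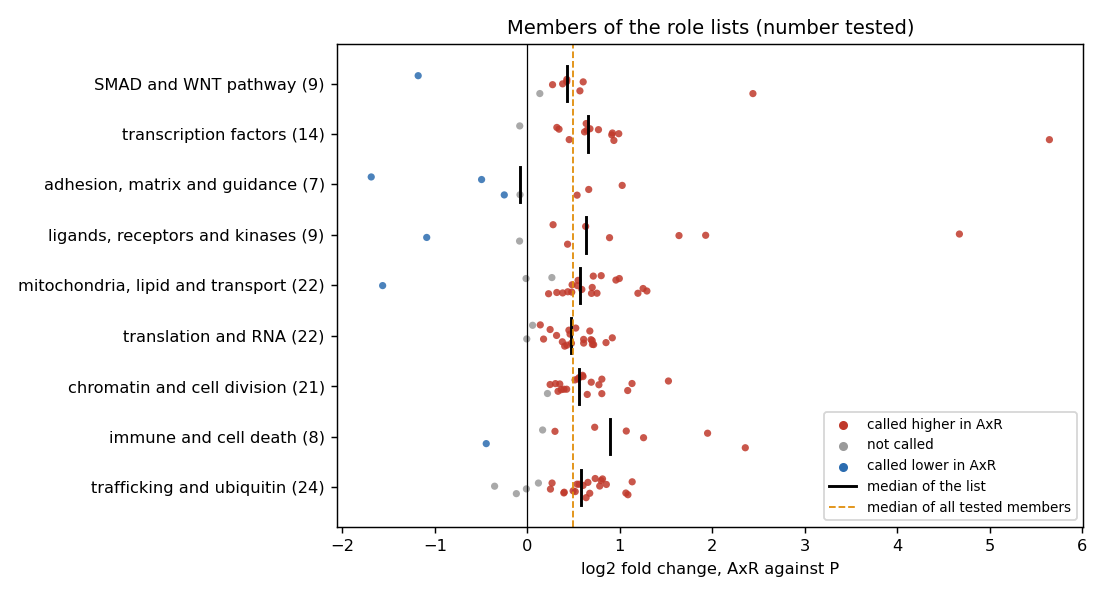
log2 fold change (AxR against P) of the tested members of each role list, with their number in brackets. Points are genes coloured by edgeR call, black bars are list medians and the dashed line is the median of all members (0.50). The list medians lie between 0.43 and 0.90 apart from adhesion, matrix and guidance (-0.079, 7 genes).

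Of 9 SMAD and WNT pathway genes, 7 were called higher, 1 lower and 1 was not called, with a median of 0.43. Smad4, the shared partner of the receptor-activated SMADs, was at 114, 108 and 116 CPM in P and 168, 166 and 169 CPM in AxR, with no overlap (log2 fold change 0.57, SE 0.050). Smad2, which is activated by TGF-beta receptors, was at 48.0, 50.6 and 49.8 CPM in P and 57.1, 59.1 and 63.1 CPM in AxR (0.27, SE 0.061), and the inhibitory Smad7 was at 56.7, 57.8 and 56.5 against 71.1, 77.7 and 80.9 CPM (0.43, SE 0.060). All 3 SMAD genes were thus higher in every AxR library, Smad2 by the least. Apc was at 159, 154 and 163 CPM in P and 211, 199 and 209 CPM in AxR (0.38, SE 0.049). Csnk1a1, the casein kinase that primes beta-catenin, had the highest mean CPM of the list, at 356, 341 and 362 CPM in P and 481, 474 and 469 CPM in AxR (0.43, SE 0.045). Neither gene's libraries overlapped.

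Both extremes of the same list moved far from the rest. Cxxc5 (35829397-35861688, plus strand), a zinc finger protein known to restrain WNT signalling, was at 3.10, 2.94 and 2.67 CPM in P and 15.3, 16.3 and 15.9 CPM in AxR (log2 fold change 2.44, SE 0.12). Mcc (44425060-44812182, minus strand), named for its mutation in colorectal cancers, was at 29.6, 30.1 and 27.5 CPM in P and 13.7, 13.2 and 11.7 CPM in AxR (-1.18, SE 0.084). Mcc thus fell in all 3 AxR libraries. Dcp2, which removes the cap of messenger RNAs and starts just before Mcc, was at 49.5, 47.7 and 52.2 CPM in P and 95.2, 90.9 and 96.2 CPM in AxR (0.92, SE 0.057).

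Of 14 tested transcription factors, 13 were called higher and none lower, with a median of 0.66, and 6 more (Gata6, Sall3, Zfp521, Setbp1, Onecut2 and Zbtb7c) fell under the count rule. Zeb1 (5591860-5775467, plus strand), a repressor of epithelial genes known from epithelial-mesenchymal transition, was near absent from P, at 0.0608, 0.0577 and 0.0652 CPM, and at 3.68, 3.19 and 3.41 CPM in AxR. This was 3 counts over the P libraries against 168 over the AxR libraries, a depth-adjusted ratio of 56.1 (exact 95% counting interval 18.9 to 275). Zeb1 overlaps other annotated genes. Tcf4, a basic helix-loop-helix E protein with the highest mean CPM of the list, was at 202, 186 and 199 CPM in P and 305, 330 and 304 CPM in AxR (log2 fold change 0.68, SE 0.052). Nr3c1, the glucocorticoid receptor, was at 159, 138 and 153 CPM in P and 274, 288 and 288 CPM in AxR (0.92, SE 0.056). Zfp608 was the lowest, at 69.7, 68.7 and 68.2 CPM in P and 58.8, 66.3 and 69.9 CPM in AxR, where the lines overlapped (-0.082, SE 0.064).

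The adhesion, matrix and guidance list was split. Only 7 of its 24 chromosome 18 genes were tested, and the 17 under the count rule included Cdh2, Dcc, Lox, the desmocollins Dsc1, Dsc2 and Dsc3 and most desmogleins. Of the 7, 3 were called higher, 3 lower and 1 was not called, with a median of -0.079. Ctnna1 (35118859-35254779, plus strand), the alpha-catenin that links cadherin complexes to actin, was at 239, 248 and 244 CPM in P and 517, 490 and 481 CPM in AxR (log2 fold change 1.03, SE 0.047). The desmosomal cadherin Dsg2 was called higher at 0.66 (SE 0.060) and the actin-binding Svil at 0.54 (SE 0.054). Those called lower were the transmembrane semaphorin Sema6a, the single protocadherin Pcdh1 and Ccbe1, which promotes the processing of VEGF-C in lymphatic growth.

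Sema6a (47235598-47368870, minus strand) was at 9.0, 8.83 and 8.54 CPM in P and 1.91, 2.61 and 3.58 CPM in AxR (log2 fold change -1.69, SE 0.18). Pcdh1 was at 76.5, 82.3 and 73.3 CPM in P and 50.9, 53.2 and 60.5 CPM in AxR (-0.49, SE 0.070). Ccbe1 was at 225, 228 and 222 CPM in P and 197, 190 and 180 CPM in AxR (-0.25, SE 0.049). All 3 AxR values of each gene lay under its P values. The laminin chain gene Lama3 overlapped between the lines, at 25.3, 29.1 and 29.8 CPM in P and 24.4, 25.6 and 29.5 CPM in AxR (-0.079, SE 0.088).

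Of 9 tested ligands, receptors and kinases, 7 were called higher, 1 lower and 1 was not called, with a median of 0.63, and 8, Pdgfrb and Csf1r among them, fell under the count rule. Rock1, a serine/threonine kinase that acts on the actin cytoskeleton, had the highest mean CPM of the list, at 141, 127 and 145 CPM in P and 223, 217 and 199 CPM in AxR (log2 fold change 0.63, SE 0.060). Hbegf (36504927-36515805, minus strand), a ligand of the EGF receptor, went the other way, at 212, 248 and 216 CPM in P and 95.2, 107 and 116 CPM in AxR (-1.09, SE 0.076). Every AxR library of Hbegf was below P.

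Of 22 mitochondrial, lipid and transport genes, 19 were called higher, 1 lower and 2 were not called, with a median of 0.57. Slc26a2, a sulfate transporter, was the highest, at 24.6, 24.5 and 24.6 CPM in P and 62.2, 59.3 and 59.1 CPM in AxR (log2 fold change 1.29, SE 0.063). Npc1, which moves cholesterol out of lysosomes, was at 26.6, 28.3 and 29.1 CPM in P and 45.3, 48.5 and 52.2 CPM in AxR (0.80, SE 0.072). Aldh7a1 (56509687-56572951, minus strand), an enzyme of lysine breakdown, was the lowest, at 16.2, 17.3 and 13.8 CPM in P and 5.91, 5.23 and 4.89 CPM in AxR (-1.56, SE 0.12). None of these 3 overlapped between the lines. Aldh7a1 overlaps Phax on the opposite strand, and Phax, an adaptor for the nuclear export of small nuclear RNAs, was called higher at 0.69 (SE 0.067). How the counting treated strand is not given in the sources used here, so shared reads of overlapping genes cannot be told apart.

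Of 22 translation and RNA genes, 20 were called higher and none lower, with a median of 0.47. Dcp2 and Nars, given above, were its highest member and that with the highest mean CPM. Paip2, which inhibits the poly(A)-binding protein, was the lowest and overlapped between the lines, at 93.2, 89.7 and 99.0 CPM in P and 95.0, 91.4 and 94.3 CPM in AxR (log2 fold change -0.0060, SE 0.054).

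Of 21 chromatin and cell division genes, 20 were called higher and none lower, with a median of 0.56. Lmnb1 (56707813-56753424, plus strand), which encodes lamin B1 of the nuclear envelope, was at 47.4, 48.6 and 50.5 CPM in P and 164, 136 and 122 CPM in AxR (log2 fold change 1.53, SE 0.097). Kif20a, a kinesin of cytokinesis, was called higher at 1.13 (SE 0.069) and overlaps Cdc23, a subunit of the anaphase-promoting complex, which was called higher at 0.69 (SE 0.062). Tubb6, a beta-tubulin with the highest mean CPM of the list, was at 101, 106 and 102 CPM in P and 125, 121 and 120 CPM in AxR (0.25, SE 0.050). Lmnb1 and Tubb6 did not overlap between the lines. Mapre2, a microtubule end-binding protein, was the lowest at 0.22 (SE 0.094) and was not called.

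Of 8 tested immune and cell death genes, 6 were called higher, 1 lower and 1 was not called, with the highest list median of 0.90. Cd74 (60803848-60812652, plus strand), the invariant chain of MHC class II, was at 5.96, 6.0 and 5.74 CPM in P and 24.8, 30.5 and 35.2 CPM in AxR (log2 fold change 2.36, SE 0.13). Leukocyte markers were at most at 0.365 CPM summed in any library, with Cd3e, Tyrobp and Fcer1g at 0. Tmem173 (35733679-35740554, minus strand), which encodes the DNA-sensing adaptor STING, was at 4.86, 6.0 and 5.67 CPM in P and 20.96, 21.3 and 21.7 CPM in AxR (1.95, SE 0.10). Ptpn2, a tyrosine phosphatase and the list's gene with the highest mean CPM, was at 40.7, 46.1 and 43.5 CPM in P and 52.2, 52.1 and 56.0 CPM in AxR (0.30, SE 0.066). None of these overlapped. Tslp, an epithelial cytokine, was the gene called lower, at 10.2, 11.4 and 11.3 CPM in P and 6.73, 8.48 and 8.93 CPM in AxR (-0.44, SE 0.12).

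Of 24 trafficking and ubiquitin genes, 20 were called higher, none lower and 4 were not called, with a median of 0.58. Cul2 (3382988-3436377, plus strand), the scaffold of the VHL ubiquitin ligase and one of the first members along the chromosome, was at 47.9, 48.8 and 49.4 CPM in P and 105, 106 and 110 CPM in AxR (log2 fold change 1.13, SE 0.053). Kif5b, a kinesin heavy chain with the highest mean CPM of the list, was at 341, 311 and 353 CPM in P and 493, 479 and 468 CPM in AxR (0.52, SE 0.052). The ubiquitin ligase Rnf125 was the lowest, at 4.92, 4.39 and 5.54 CPM in P and 3.56, 4.59 and 3.47 CPM in AxR, and was not called (-0.35, SE 0.17). Cul2 and Kif5b did not overlap between the lines, and Rnf125 did.

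Most members below 0 lay singly among members above 0, and no 3 neighbouring members were all below 0. With 86.2% of members above 0, most orders of the members would give mostly single exceptions and neighbour medians above 0. The counts below therefore describe the exceptions and do not test their position. Of the 42 members below 0, 38 had both neighbours above 0, and the other 4 formed 2 pairs. For every one of the 21 members called lower, the median of the 4 nearest members was above 0, at 0.19 to 1.69 with a median of 0.51. Likewise, the 21 members that lay over 1 above the chromosome's median had neighbour medians of 0.41 to 1.52, with a median of 0.66.

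Greb1l (10325177-10562940, plus strand), a gene needed for kidney development, was the lowest of all, at 13.5, 12.1 and 11.1 CPM in P and 0.762, 0.829 and 0.967 CPM in AxR, with a log2 fold change of -3.83 (SE 0.17). It lies between Rock1, given above, and Esco1, an acetyltransferase of cohesin, which was at 34.4, 33.2 and 34.2 CPM in P and 61.0, 58.3 and 58.6 CPM in AxR (0.81, SE 0.060). Both of these were higher in every AxR library while Greb1l was lower in each.

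Next in order, and named after their values were seen, were Atp8b1, a phospholipid flippase, and Rnf165, a ubiquitin ligase. Atp8b1 (64528967-64661267, minus strand) was at 1.64, 1.73 and 1.56 CPM in P and 0.318, 0.191 and 0.228 CPM in AxR (log2 fold change -2.71, SE 0.35), and Rnf165 was at 2.01, 1.62 and 1.37 CPM in P and 0.635, 0.383 and 0.398 CPM in AxR (-1.81, SE 0.33). Both were low in both lines and did not overlap. The antisense gene BC037039 (-1.75), Trim36 (-1.52), Arhgef37 (-1.21), Cables1 (-1.13), Dtna (-1.08) and Nrg2 (-0.58) were also called lower, as was Pqlc1 (-0.32), and these too were named after their values were seen.

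Among members with a mean of at least 10 CPM in the higher line, the 10 lowest also included Smim3, Gm10557, Gm6457 and Piezo2, beside Greb1l, Aldh7a1, Mcc, Hbegf, Pcdh1 and Tslp. Smim3, a small membrane protein, was at 39.3, 41.1 and 39.3 CPM in P and 21.5, 22.3 and 22.9 CPM in AxR (log2 fold change -0.84, SE 0.069). Piezo2, a mechanically gated ion channel, was at 19.5, 19.2 and 19.9 CPM in P and 15.2, 15.8 and 15.6 CPM in AxR (-0.33, SE 0.078). Neither overlapped between the lines. The pseudogenes Gm10557 (-0.63) and Gm6457 (-0.62) may share reads with genes elsewhere.

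**Figure D5:**
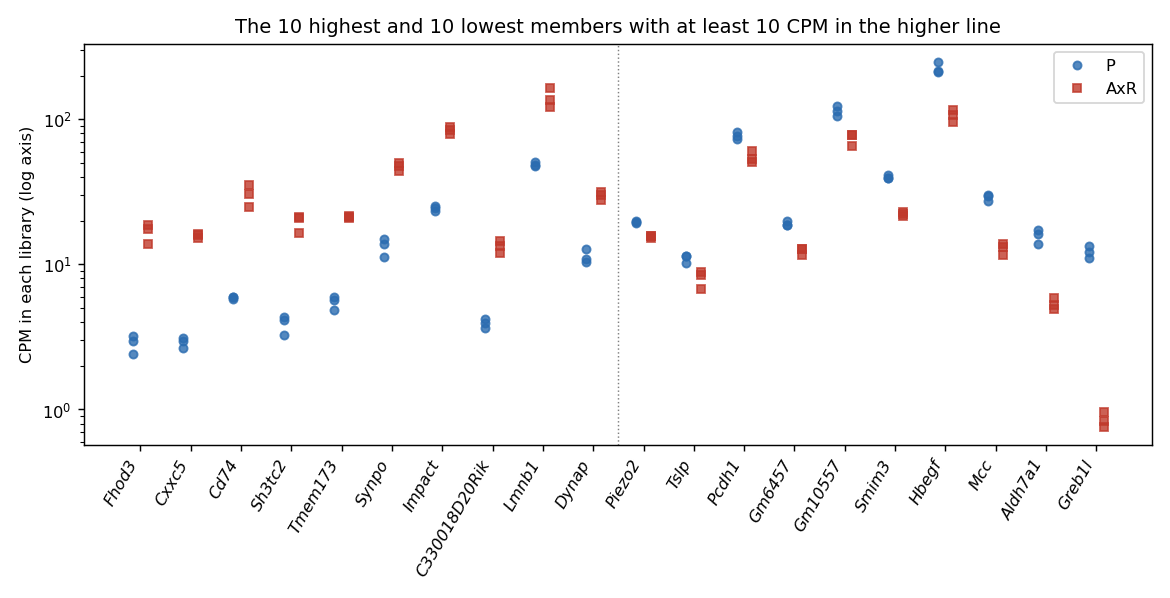
CPM (log axis) in each P (circles) and AxR (squares) library for the 10 highest and 10 lowest members by log2 fold change among those with a mean of at least 10 CPM in the higher line. Each symbol is 1 library. In none of the 20 genes do the lines overlap, which the choice of genes by log2 fold change favours.

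The 10 highest by the same rule were Fhod3, Cxxc5, Cd74, Sh3tc2, Tmem173, Synpo, Impact, C330018D20Rik, Lmnb1 and Dynap. Fhod3 (24708623-25133501, plus strand), a formin that builds actin filaments, was at 2.98, 2.42 and 3.19 CPM in P and 17.7, 13.9 and 18.5 CPM in AxR (log2 fold change 2.55, SE 0.15). Sh3tc2, a protein of endocytic recycling known from an inherited neuropathy, was at 3.28, 4.33 and 4.11 CPM in P and 16.5, 21.2 and 20.8 CPM in AxR (2.32, SE 0.14). Both were low in P and higher in every AxR library.

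Synpo, the actin-associated synaptopodin, was at 13.8, 11.3 and 14.9 CPM in P and 47.5, 49.7 and 43.9 CPM in AxR (log2 fold change 1.82, SE 0.094). Impact (12955852-12992950, plus strand), an imprinted gene whose product restrains the kinase GCN2, was at 24.4, 23.2 and 25.2 CPM in P and 84.7, 89.2 and 79.2 CPM in AxR (1.80, SE 0.067). C330018D20Rik (1.76, SE 0.13) and Dynap, which encodes a dynactin-associated protein (1.39, SE 0.091), completed the 10.

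A few members were near the floor in P. Beside Zeb1, Iigp1, an interferon-inducible GTPase, had 3 counts over the P libraries and 89 over the AxR libraries, a depth-adjusted ratio of 29.7 (exact 95% counting interval 9.85 to 147). Psd2, an exchange factor for ARF6, had 5 counts against 88, a ratio of 17.6 (7.28 to 55.7). Sh3rf2, a ubiquitin ligase, was at 0.122, 0.289 and 0.0652 CPM in P and 4.06, 3.06 and 3.87 CPM in AxR (log2 fold change 4.43, SE 0.37). Iigp1, Psd2 and Sh3rf2 were named after their values were seen. Sh3rf2 lay above the floor of 0.173 CPM in P replicate 2. The 4 members at or under 3 counts in every P library were Zeb1, Iigp1, Psd2 and a gene not reported here. With these 4 set to their counted ratio, the median of the members was still 0.50.

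The 52 members not called had a median of 0.033 and ran from -0.76 to 0.49. They included 11 of the 15 pseudogenes, and 24 of the 52 had a mean under 10 CPM. At the edge of the count rule, B930094E09Rik was just inside, with 4, 8 and 6 counts in P and 10, 12 and 13 in AxR, and was the 1 member not tested. Just outside were B430212C06Rik (3, 2 and 4 in P, 12, 9 and 9 in AxR), Gm15958 (4, 3 and 7, then 9, 9 and 12) and Gm7936 (13, 8 and 5, then 9, 8 and 17). In all, 140 members overlap another gene of the table.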

How the data were processed

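RNA of 6 libraries (3 P, 3 AxR) was sequenced after stranded mRNA library preparation. The authors deposited estimated counts per gene from RSEM, not normalized. The submitters' processing notes name FastQC 0.11.5, STAR 2.6.0a and RSEM 1.3.1. Of the values, 10.3 to 10.7% per library were not whole, and all were rounded. Gene IDs were placed with GENCODE M21 (53360 of 53465 found), on GRCm38, the study's build, whereas the study's methods name release M16. How RSEM treated strand is not given in the sources used here.

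Genes passing edgeR's expression filter (13550, holding 99.9% of counts) were upper-quartile normalized (factors 0.966 to 1.02) and fitted with edgeR 4.0.16 (robust quasi-likelihood, group only). Benjamini-Hochberg adjustment ran over all genes tested, with a threshold of 0.05. CPM are relative to normalized library size and not to gene length. The fit was checked on simulated counts in which far fewer genes changed than were called here. That check does not cover a shift of a whole chromosome. Ratios near the floor of 3 counts carry exact 95% intervals (scipy 1.17.1). These cover counting error only.

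The chromosome, the members and the role lists were chosen with earlier results of these data known. Named genes were the 10 highest and 10 lowest members with at least 10 CPM in the higher line, members near the floor in 1 line, the highest, lowest and most counted of each role list, the 5 most counted members, genes at the edge of the count rule and others described as chosen after their values were seen or given as background to a list. Alternatives used edgeR's TMM, library size, DESeq2 1.42.0, limma 3.58.1, other filters and member rules, a replicate block and leaving out each library. The highest gene of 1 role list is not reported here.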

Additional observations from a re-analysis of the deposited data

How the results depend on the processing

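Across the 14 other fits, members called higher numbered 220 to 235 and members called lower 17 to 23, out of 284 to 306 members. Over all genes, the same fits called 3962 to 4761 higher and 3782 to 4337 lower. Under the 3 other member rules, 239 of 318 were called higher and 22 lower with the clustered protocadherins, 225 of 278 and 18 with protein-coding members only, and 188 of 225 and 9 with a mean of at least 10 CPM. These rules use the main fit, in which 32.8% of all genes tested were called higher and 30.8% lower. The members' median stayed between 0.47 and 0.53 in every fit and member rule, at 0.48 with TMM, 0.47 with library size, 0.48 with DESeq2, 0.51 with upper-quartile factors from the other chromosomes and 0.53 with protein-coding members only. The share above 0 was 85.2, 84.9, 85.6, 87.2 and 88.8% in these settings, 87.0% with at least 10 counts in every library and 91.6% with a mean of at least 10 CPM. Leaving out each library in turn gave medians of 0.49 to 0.52 and shares of 84.6 to 86.9%, a highest window median of 0.64 to 0.75, a lowest of 0.36 to 0.41 and a largest left-right difference of 0.21 to 0.26. Among windows with at least 10 members, medians ran from 0.31 to 0.79 over 12 windows of 5 Mb and from 0.43 to 0.62 over 5 windows of 20 Mb. The 5 Mb windows with fewer members were not counted. The shift of AxR replicates 1 and 2 was 0.46 and 0.47 with TMM, and that of AxR replicates 1 to 3 was 0.41, 0.47 and 0.51 with library size. Of the 42 genes recomputed, those close to 0 changed sign: Rps2-ps10 was at 0.0058 without P replicate 2 (leaving out each library gave -0.052 to 0.0058), and Paip2 at 0.0094 with factors from the other chromosomes, 0.035 without P replicate 3 and 0.014 without AxR replicate 2 (-0.037 to 0.035 over the 6 libraries). Mapre2 was called at 0.23 with factors from the other chromosomes and at 0.29 without AxR replicate 3, and Rnf125 at -0.49 without AxR replicate 2. The cause of these changes was not tested.

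Same-numbered P and AxR libraries did not deviate together (correlations of -0.021, -0.0061 and -0.022, against -0.0011 to 0.020 for different numbers). With 3 libraries per line, this cannot tell whether same-numbered libraries were cultured or prepared together. With a replicate block, 231 members were called higher and 21 lower, and over all genes 4304 and 4023. Of the 38 members farther than 1 from the median, 26 had a mean under 10 CPM. With 1 derived line, the line and its derivation cannot be told apart.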
